A study of Arabidopsis thaliana with 3 samples.

Results

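Wild-type Arabidopsis leaves in recovery were compared with wild-type leaves under normal growth, to ask what stayed changed 24 h after rewatering. The comparison uses 2 of the 6 channels of the series, the Cy3 channel of the recovery array and the Cy3 channel of the normal growth array, and 26017 loci represented by 29234 spots. Leaves in recovery came from plants that had gone 8 days without water, per the labels of that sample, whereas the protocol text of the other arrays names 5 days only. Leaves under normal growth came from plants that were never stressed. The Cy3 channel of the remaining array, from plants after 5 days of water stress, shared the normalization and is given beside the comparison. All plants were Col-0 and 5 weeks old, gave rosette leaves and stood at 22 °C in days of 16 h light and 8 h dark, per the labels. On the same slides the Cy5 channel carried leaves of the transgenic line AhNF-YC-OE in the same state. The sources used here name neither the promoter of that transgene nor the number of lines, nor say whether plants were pooled.

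A plant that dries out accumulates the hormone abscisic acid (ABA), which closes stomata and turns on protective proteins such as dehydrins and other late embryogenesis abundant (LEA) proteins, and photosynthesis is held back. After rewatering, ABA is broken down by CYP707A hydroxylases, stored proline is oxidised by proline dehydrogenase, aquaporins carry water into cells, and growth and photosynthesis resume. The genes below are ordered by these roles.

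Each state had 1 array, so state and array cannot be told apart, no difference has a replicate check and no p-value is given. A change is the log2 normalized intensity in recovery minus that under normal growth, and a gene is called when it is at least 2-fold apart, a log2 change of 1 in size. All values are only as precise as 1 array a state allows. The median raw spot intensity was 1399 in recovery and 4208 under normal growth, and median signal over local background was 25.5 and 85.9 on those arrays. On the water stress array these values were 1422 and 26.3, close to those of recovery. Quantile normalization gave the 3 wild-type channels the same distribution. Of the 29234 gene spots, 86.5% in recovery were brighter than 95% of the 510 spots annotated as empty, against 45.8% under normal growth. The 95th percentile of the empty spots was a raw intensity of 260.1 in recovery, 5668 under normal growth and 400.1 under water stress. The normal growth array was thus unlike both others. Where genes are chosen by their change from normal growth, like levels in recovery and water stress are therefore not read as a lasting change. The part of these differences between the arrays in the results was not tested.

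Gene names below come from the annotation of the array, and spots annotated to 1 transcript agreed little. Over 1464 transcripts with exactly 2 spots, the changes of the 2 spots correlated at 0.115 and their recovery levels at 0.077, across pairs of spots on the same arrays. Where 1 spot was at least 2-fold higher in recovery, the other was at least 2-fold higher in 18.0% and lower in 12.2% of cases, against 15.1% each way over all gene spots. The pooled SD between spots of 1 transcript was 1.01 for transcripts with 2 to 4 spots, close to the SD of 1.08 over all those spots. Within 22 control features that were printed 8 to 12 times, the pooled SD was 0.69, against 0.85 over all control spots. The control values were not quantile-normalized, so they are not on the same scale as the gene spots. A 2-fold change at a gene with 1 spot is thus of the size of the scatter between spots. A name may therefore not belong to the spot that carries it, which was not settled here, and every gene value below is the value of the spots annotated with that name.

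Genes that mark leaves did not stand out by brightness. By its median, the level of the 50 light reaction genes exceeded 53.8% of loci in recovery and 53.4% under normal growth, and that of the 19 carbon fixation genes 58.5% and 52.3%. The corresponding shares were 70.7% and 70.1% for 9 seed markers, 49.3% and 45.6% for 10 root markers, and 55.1% and 51.1% for 8 flower markers. Brightness also depends on the probe, and a name may not belong to its spot, so these levels are not read for or against the labelled tissue. The cause of these levels was not tested. No marker was at 0, and SESA1, a seed albumin, was the marker not above background in recovery.

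Levels in recovery and under normal growth followed each other over a wide cloud (plot of levels per locus). Of 26013 loci above background on at least 1 of the 2 arrays, 3859 (14.8%) were at least 2-fold higher in recovery and 3825 (14.7%) at least 2-fold lower, 29.5% in all. At least 4-fold apart were 699 higher loci (2.69%) and 1017 lower loci (3.91%), while 47.3% of loci lay within 1.5-fold. The median change was 0.05 and the SD over loci 1.06. With the channels scaled to equal medians instead of equal distributions, 10970 loci were called higher and 2443 lower, so that 81.8% of calls were higher, against 50.2% after quantile normalization, and the median change of all loci was 0.78.

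**Figure D1:**
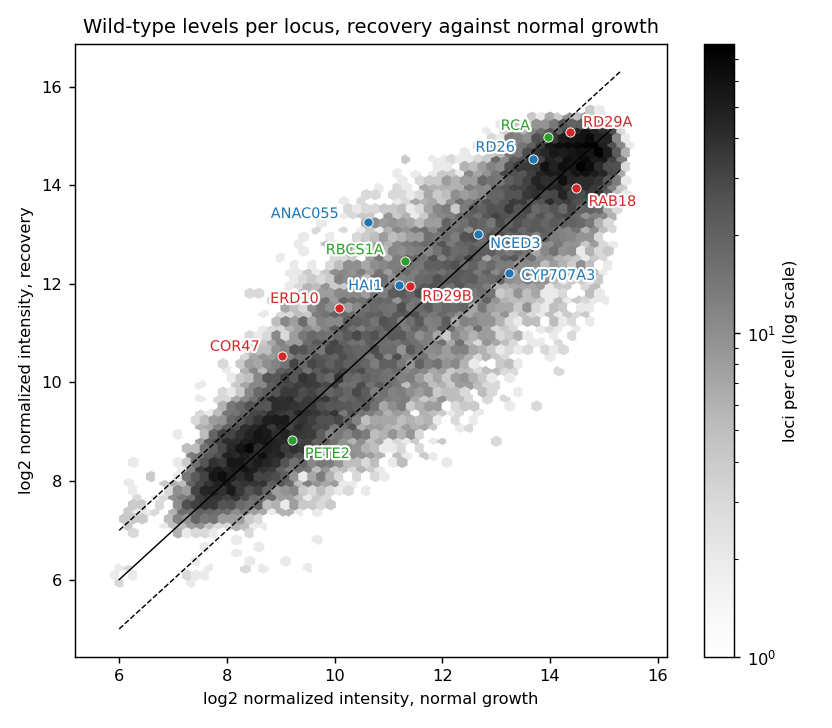
Levels of all loci in the wild-type channel: log2 normalized intensity in recovery (y axis) against that under normal growth (x axis), with darker cells holding more loci on a log scale, the solid line marking equal levels and the dashed lines a 2-fold difference. Labelled points are drought-induced proteins (red), ABA genes (blue) and photosynthesis genes (green). ANAC055, COR47 and ERD10 sit above the upper dashed line, RD29A and RD29B between the lines, and CYP707A3 on the lower line.

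Calls were densest at middle brightness. In the sixth of 10 equal groups of loci ordered by mean level, with a median intensity of 3040, 24.8% of loci were higher and 22.7% lower, and the SD of the change was 1.43. In the dimmest group 5.61% were higher and 6.65% lower, and in the brightest 4.07% and 3.73%. The place on the slide also moved with the change: medians of the rows of print-tip blocks ran between −0.30 and 0.48. By chromosome, 859 of 6712 loci were higher and 1222 lower on chromosome 1, while 707 of 3949 were higher and 456 lower on chromosome 4. The relation of these counts to the place of the spots was not tested.

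The best measured genes were the 11 printed at 12 or 24 spots, whose spots sample the slide widely. AT5G46430, annotated as a 60S ribosomal protein L32, was higher in recovery at all 12 spots, by a log2 change of 2.33 ± 1.22 (SD over spots). Its mean intensity was 5060 in recovery, against 1010 under normal growth, and 5750 under water stress. AT2G17190, annotated as a ubiquitin family protein, was also higher at all 12 spots, by 1.84 ± 0.77. Its mean intensity was 6530 in recovery, against 1830 under normal growth, and 7970 under water stress. For both genes every spot lay on 1 side of 0, and the recovery level was closer to the water stress level than to the normal growth level. Both stand out by their change from normal growth, whose array was unlike the others in intensity. The closeness is therefore not read as a lasting change. ACX4, a peroxisomal acyl-CoA oxidase of short-chain fatty acid breakdown, was lower at 11 of 12 spots, with a mean change of −1.15 ± 1.1. Its mean intensity was 5990 in recovery, against 13300 under normal growth, and 5820 under water stress, and with median scaling its mean change was −0.70.

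The other 8 repeated genes had mean changes smaller than 1. The plastid chaperone cpHsc70-2 changed by 0.70 ± 0.79 and the tubulin TUB2 by 0.69 ± 0.61, or 1.51 with median scaling, each higher at 10 of 12 spots. PGDH, a phosphoglycerate dehydrogenase of serine synthesis, stood at 0.16 ± 0.82, with 6 spots on each side of 0. The actin ACT2, with 24 spots, averaged −0.29 ± 0.95 and was lower at 15 of them. The ubiquitin-like UBL5 averaged −0.67 ± 0.53, the ribosomal protein RPS9 −0.56 ± 0.54 and the tubulin TUA1 −0.48 ± 0.56, but with median scaling these 3 means were 0.32, 0.27 and 0.70. TUB1, another tubulin, averaged −0.52 ± 1.04. None of these 8 genes had all its spots on 1 side of 0.

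**Figure D2:**
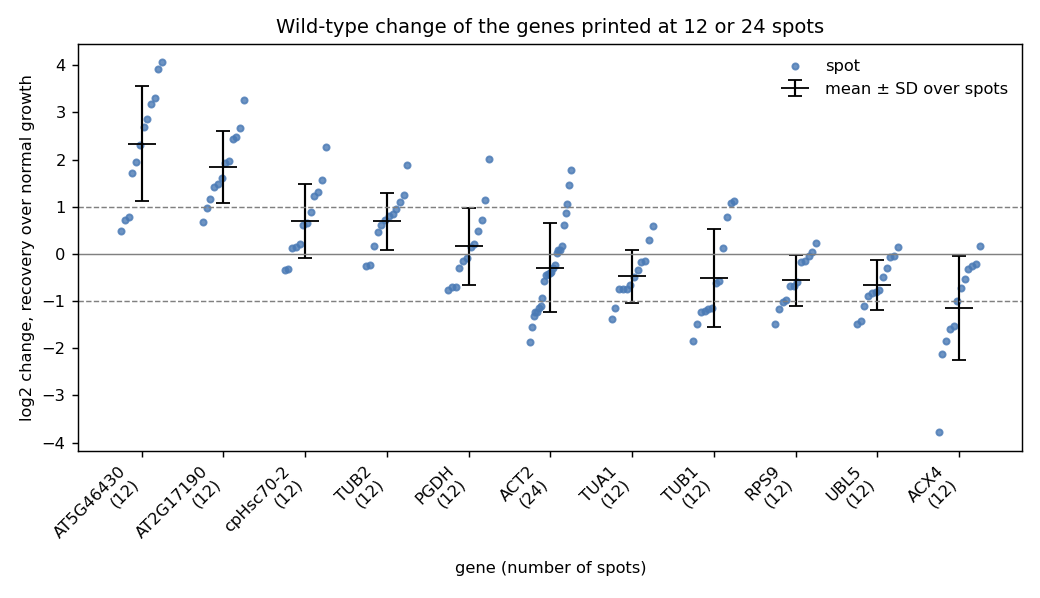
Log2 change, recovery over normal growth, in the wild-type channel (y axis) at each spot (points) of the 11 genes printed at 12 or 24 spots (x axis), with the mean and SD over spots as bars. All spots of AT5G46430 and AT2G17190 lie above 0, 11 of 12 spots of ACX4 lie below it, and the spots of the other 8 genes fall on both sides.

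The named genes farthest above normal growth were led by FRO1 (AT5G67590, FROSTBITE1), a subunit of mitochondrial respiratory complex I known from the control of cold-induced genes. It had a normalized intensity of 11900 in recovery, against 480 under normal growth, a log2 change of 4.63, and 1810 under water stress. WRKY25 (AT2G30250), a transcription factor of heat, salt and defence responses, had 3300 in recovery, against 178 under normal growth, a change of 4.21, and 1730 under water stress. GLY2 (AT3G10850), a glyoxalase that detoxifies methylglyoxal, had 6000 in recovery, against 358 under normal growth, a change of 4.07, and 5430 under water stress. FRO1 was thus higher in recovery than on either other array, while GLY2 was at a like level in recovery and water stress. CPL1 (AT4G21670, FIERY2), a phosphatase of the RNA polymerase tail that limits stress gene expression, had 16100 in recovery, against 1160 under normal growth, a change of 3.80. SR1 (AT5G01820), a CBL-interacting protein kinase, had 4840 in recovery, against 421 under normal growth, a change of 3.53, and only 1060 under water stress.

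Genes of chromatin, cell division and regulation were among the rest of these 12. The silencing factor MOM (AT1G08060) changed by 3.65, the mitotic cyclin CYCB1;4 (AT2G26760) by 3.63, the Dof transcription factor DOF4.5 (AT4G21080) by 3.90 and the cytokinin response factor CRF7 (AT1G22985) by 3.51. EMB506 (AT5G40160), an ankyrin-repeat protein of plastids needed in embryos, changed by 3.64. The plastid glucose transporter PGLCT (AT5G16150) changed by 3.50 and the golgin GC5 (AT1G79830), a Golgi tether, by 3.49. Each of the 12 genes was measured at 1 spot, and each was also higher in the AhNF-YC-OE channel of the same slides, at 3.71 for GC5 to 5.35 for FRO1. Under normal growth none of the 12 was brighter than 95% of the empty spots of that array, so the sizes of these changes are uncertain.

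The named genes farthest below normal growth included kinase, transport and chromatin genes, and most of them lie on chromosome 1. CDPK1 (AT1G18890), a calcium-dependent protein kinase of ABA and calcium signalling, had a normalized intensity of 92.5 in recovery, against 7840 under normal growth, a log2 change of −6.40, and 131 under water stress. Its recovery spot was not brighter than 95% of the empty spots, and the change ran between −8.07 in the authors' normalized values and −5.82 with median scaling, so its size is uncertain. XIB (AT1G04160), a class XI myosin that moves organelles along actin, had 394 in recovery, against 14300 under normal growth, a change of −5.19, and 432 under water stress. ABCC5 (AT1G04120), an ABC transporter of inositol hexakisphosphate that acts in guard cells, had 1180 in recovery, against 29900 under normal growth, a change of −4.66, and 2770 under water stress. These 3 genes, picked for their change from normal growth, were far lower on both arrays of plants that had been stressed than under normal growth. CYP71B7 (AT1G13110), a cytochrome P450, had 1010 in recovery, against 25000 under normal growth, a change of −4.63, and 5120 under water stress, which lay between.

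PH1 (AT2G29700), a pleckstrin homology protein, changed by −4.60, DJ1B (AT1G53280), of the DJ-1 family, by −4.50, and CSLD5 (AT1G02730), a cellulose synthase-like protein, by −4.38. The P450 CYP71B9 (AT2G02580) changed by −4.33 and the histone deacetylase HDA9 (AT3G44680) by −4.24. NSP1 (AT3G16400), a nitrile-specifier protein of glucosinolate breakdown, changed by −4.21, and GSTU23 (AT1G78320), a glutathione S-transferase, by −4.06. In recovery neither PH1 nor GSTU23 was brighter than 95% of the empty spots, so the sizes of their changes are uncertain. TIF3H1 (AT1G10840), subunit h of translation initiation factor eIF3, changed by −4.17 at its brightest transcript, with 3 spots between −4.17 and −0.48 and a mean over spots of −2.04. It was the one of these 12 genes with more than 1 spot. CDPK1, XIB, ABCC5, CYP71B7, DJ1B, CSLD5, TIF3H1 and GSTU23 all lie on chromosome 1, where lower loci outnumbered higher loci. The ranking is therefore not read by gene function, and its relation to the place of the spots was not tested.

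Genes with 2 or more spots can be described by whether every spot lay at least 2-fold the same way. Of 1926 loci with more than 1 spot, 33 had all spots at least 2-fold higher, 39 had all spots at least 2-fold lower, and 820 had all spots of 1 sign. Over all gene spots 15.1% were called each way. Beside a higher spot the other spot of a pair was higher in 18.0% of cases, and beside a lower spot lower in 19.8%. These counts are thus close to what spots without any agreement would give, and are not read as more than that. The genes below were picked because their spots agree, so that agreement is no support for them. BZO2H1 (AT4G02640), a bZIP transcription factor, had 2470 in recovery, against 470 under normal growth, with 2 spots at changes of 1.56 and 3.22. LUT1 (AT3G53130), the carotene hydroxylase that makes the leaf pigment lutein, had 3940 in recovery, against 1190 under normal growth, with spots at 1.44 and 2.02. CPN20 (AT5G20720), a co-chaperonin of chloroplasts, had 4020 in recovery, against 1610 under normal growth, with 3 spots between 1.26 and 1.45. The spots of CPN20 lay within 0.2 of each other, those of BZO2H1 more than 1 apart.

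Also higher at every spot were SAC3C (AT3G54380), of a family of mRNA export proteins, at 1.68, and the glycolipid transfer protein GLTP1 (AT2G33470) at 1.71. FIP2 (AT5G55000), which binds a formin, stood at 1.34, GATB (AT1G48520), a subunit of the organellar amidotransferase that makes glutaminyl-tRNA, at 1.22, and HMT-1 (AT3G25900), a homocysteine methyltransferase, at 1.20. BPM2 (AT3G06190), a substrate adaptor of a ubiquitin ligase, stood at 1.16, and 0.95 after each print-tip block was centred. The cytokinin response factor CRF2 (AT4G23750) had 9870 in recovery, against 4260 under normal growth, a change of 1.21, whereas its AhNF-YC-OE channel changed by −0.23.

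Lower at every spot were a tetraspanin-like protein first known from tobamovirus multiplication, TOM2A (AT1G32400), and the cell-wall-loosening expansin EXPA1 (AT1G69530). TOM2A had 2610 in recovery, against 16500 under normal growth, a change of −2.66 with spots at −2.66 and −2.49. EXPA1 had 1680 in recovery, against 9170 under normal growth, a change of −2.45 with spots at −3.04 and −2.45. Under water stress TOM2A had 5360 and EXPA1 4050, between the other arrays. PIF4 (AT2G43010), a light- and temperature-regulated growth factor of the bHLH family, had 1380 in recovery, against 3330 under normal growth, a change of −1.27 with spots at −1.31 and −1.27, and 3160 under water stress. Its change was −0.90 after block centring.

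JMJD5 (AT3G20810), a jumonji protein tied to the circadian clock, stood at −2.08, RTH (AT3G51040), a homologue of an ethylene receptor regulator, at −1.93, and SHH2 (AT3G18380), a homeodomain protein, at −1.92. The phosphoglycerate mutase iPGAM2 (AT3G08590) stood at −1.85, at 202 in recovery, against 731 under normal growth, and was brighter than 95% of the empty spots on neither array. PDIL5-1 (AT1G07960), a protein disulfide isomerase-like protein, stood at −1.45, PPT1 (AT4G23660), the polyprenyltransferase of ubiquinone synthesis, at −1.41, and ASHH1 (AT1G76710), a SET domain protein, at −1.29. With median scaling these 3 were −0.37, −0.41 and −0.18, and PPT1 was −0.82 in the authors' normalized values.

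**Figure D3:**
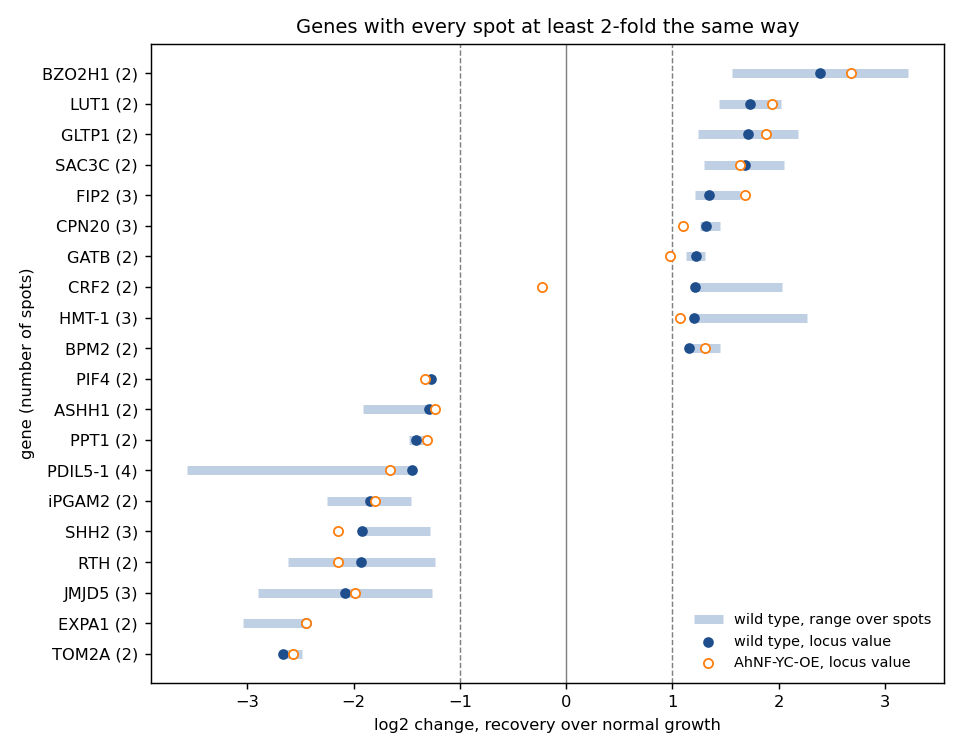
Log2 change, recovery over normal growth (x axis), of the 20 named genes with every wild-type spot at least 2-fold the same way (y axis, with the number of spots): bars span the wild-type spots, filled points are the wild-type locus value and open points the AhNF-YC-OE locus value. The open points lie on the same side of 0 as the filled ones except for CRF2, whose filled point is at 1.21 and open point at −0.23.

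Proteins that drought induces were called higher more often than lower, but not after block centring. Of 23 genes measured, 6 (26.1%) were at least 2-fold higher in recovery and 2 (8.70%) at least 2-fold lower, against 14.8% and 14.7% of all loci, and their median change was 0.50, against 0.05. After each print-tip block was centred, 2 were higher and 2 lower, so that the excess of higher genes was gone. The shares of all loci are the background of every list count that follows. COR47 (AT1G20440), a dehydrin, had 1480 in recovery, against 521 under normal growth, a change of 1.51, and 2970 under water stress. ERD10 (AT1G20450), another dehydrin, had 2900 in recovery, against 1080 under normal growth, a change of 1.43 with 3 spots between 0.82 and 1.43, and 4240 under water stress. Both lay between normal growth and water stress. LEA7 (AT1G52690) had 35400 in recovery, against 14400 under normal growth, a change of 1.29. KIN1 (AT5G15960), a small cold- and ABA-induced protein whose near-identical neighbour KIN2 makes its signal uncertain, had 515 in recovery, against 214 under normal growth, a change of 1.27. COR47 and KIN1 stood at 0.78 and 0.54 after block centring.

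The classic drought reporters were not called in the values reported. RD29A (AT5G52310), whose promoter carries drought and cold response elements, had 34600 in recovery, against 21300 under normal growth, a change of 0.70. RD29B (AT5G52300), its ABA-responsive neighbour, had 3960 in recovery, against 2690 under normal growth, a change of 0.56. RAB18 (AT5G66400), an ABA-induced dehydrin, had 15800 in recovery, against 22900 under normal growth, a change of −0.54. After block centring RD29A, RD29B and RAB18 stood at 1.0, 0.40 and 0.12. With median scaling they stood at 1.92, 0.57 and 0.40, where all loci had a median of 0.78. RAB18 thus has no settled direction, and RD29A passed 2-fold with median scaling. Lower in recovery were ERD6 (AT1G08930), a sugar transporter, at 7320 against 35900 under normal growth, a change of −2.29, and the dehydrin ERD14 (AT1G76180), at 7990 against 21100, a change of −1.40 that was −0.69 with median scaling. The sum of intensities over the list was 331000 in recovery and 300000 under normal growth.

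ABA genes moved both ways. Of 41 measured, 7 (17.1%) were higher and 5 (12.2%) lower in recovery, with a median change of 0.19. Synthesis genes did not share a direction: NCED3 (AT3G14440), the rate-limiting dioxygenase, had 8310 in recovery, against 6450 under normal growth, a change of 0.37 that was 1.09 after block centring, and AAO3 (AT2G27150), the aldehyde oxidase of the last step, had 1430 in recovery, against 4100 under normal growth, a change of −1.52. Of the hydroxylases that break ABA down, CYP707A1 (AT4G19230) had 1070 in recovery, against 4210 under normal growth, a change of −1.98, but its 3 spots spread between −1.98 and 0.56. CYP707A2 (AT2G29090) changed by −1.1, and by −0.37 after block centring. CYP707A3 (AT5G45340), the form known to respond to rehydration, had 4800 in recovery, against 9620 under normal growth, a change of −1.0 with 3 spots between −1.11 and 0.18, and 4200 under water stress. It passed the 2-fold step by little and did not pass it in the mean over spots, at −0.61.

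Downstream of the hormone, ANAC055 (AT3G15500), a NAC transcription factor induced by drought, ABA and jasmonate, showed the highest change of the list. It had 9830 in recovery, against 1580 under normal growth, a change of 2.64, and 9990 under water stress. Its relative RD26 (AT4G27410) had 23700 in recovery, against 13200 under normal growth, a change of 0.84 with 2 spots between −0.17 and 0.84, which was 1.62 with median scaling. The homeodomain factor HB12 (AT3G61890), which drought and ABA induce, had 23200 in recovery, against 8400 under normal growth, a change of 1.47. ANAC055 and HB12 were as bright in recovery as under water stress, where HB12 had 22900. Both were called against the same normal growth array, so this is not read as a lasting change.

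Of the PP2C phosphatases given here, which block ABA signalling until a receptor binds them, only HAB1 and HAB2 were called, both higher. HAB1 (AT1G72770) had 2060 in recovery, against 569 under normal growth, a change of 1.86, and HAB2 (AT1G17550) had 32800 in recovery, against 12900 under normal growth, a change of 1.35. HAI1 (AT5G59220), the strongly ABA-induced member, had 4050 in recovery, against 2340 under normal growth, a change of 0.79. HAI3 (AT2G29380) changed by 0.19. HAI2 (AT1G07430) changed by −0.43, which was −0.03 after block centring and 0.75 with median scaling, so its direction is not settled. Among the receptors, PYL9 (AT1G01360) was called lower, at 5700 in recovery, against 12800 under normal growth, a change of −1.17. It was −0.78 with median scaling and −0.68 after block centring.

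The list for proline and rehydration holds genes of proline synthesis, breakdown and transport and 5 bZIP factors tied to low energy and rehydration. Of 14 genes measured, 3 (21.4%) were higher in recovery and 0 lower, against 14.8% and 14.7% of all loci, with a median change of 0.34, which was −0.05 after block centring. PROT1 (AT2G39890), a proline transporter, had 10200 in recovery, against 3500 under normal growth, a change of 1.55, and 7240 under water stress. PRODH2 (AT5G38710), the minor proline dehydrogenase, had 5530 in recovery, against 2330 under normal growth, a change of 1.25, and 7270 under water stress. The transporter PROT2 (AT3G55740) changed by 1.07, with 3 spots between 0.06 and 1.07 and a mean over spots of 0.44. PRODH1 (AT3G30775), the dehydrogenase known for its induction on rehydration, had 9990 in recovery, against 12200 under normal growth, a change of −0.29. P5CS1 (AT2G39800), the stress-induced synthase of proline, had 12400 in recovery, against 16900 under normal growth, a change of −0.44. With median scaling PRODH1 stood at 0.11 and P5CS1 at 0.21.

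Aquaporins, the water channels of plasma membrane (PIP) and vacuole (TIP), held 7 higher (26.9%) and 4 lower (15.4%) of 26 genes, with a median change of 0.26 and of −0.01 after block centring. PIP2;6 (AT2G39010) had 3040 in recovery, against 709 under normal growth, a change of 2.1. PIP1;5 (AT4G23400) had 31700 in recovery, against 7720 under normal growth, a change of 2.04, and TIP5;1 (AT3G47440) had 37100 in recovery, against 12200 under normal growth, a change of 1.60. In the AhNF-YC-OE channel PIP2;6 changed by 2.29, PIP1;5 by 0.90 and TIP5;1 by 0.23. PIP2;7 (AT4G35100) had 2070 in recovery, against 700 under normal growth, a change of 1.57, and 977 under water stress.

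None of the 4 lower aquaporins exceeded 2280 under normal growth. PIP2;2 (AT2G37170) had 399 in recovery, against 1370 under normal growth, a change of −1.78, and its near-identical neighbour PIP2;3 (AT2G37180) had 413 in recovery, against 842 under normal growth, a change of −1.03, so that either signal is uncertain. TIP1;1 (AT2G36830), a major channel of the leaf vacuole, had 630 in recovery, against 1400 under normal growth, a change of −1.15. PIP1;4 (AT4G00430) stood at −1.23 with 3 spots between −2.45 and −0.50, at −0.17 with median scaling and at 3.27 in the authors' normalized values, so its direction is not settled. TIP1;1 and PIP2;3 were −0.99 and −0.58 with median scaling and −0.75 and −0.93 after block centring.

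Genes of the light reactions were called lower more often than higher. Of 50 genes, 6 (12%) were higher and 11 (22.0%) lower in recovery, and the median change was −0.17, which was 0.48 with median scaling, where all loci had 0.78. After block centring 6 were higher and 8 lower. PSBP1 (AT1G06680), of the oxygen-evolving complex of photosystem II, had 7370 in recovery, against 28800 under normal growth, a change of −1.96, and 18000 under water stress. LHCB5 (AT4G10340), a minor antenna protein, had 2050 in recovery, against 7790 under normal growth, a change of −1.93, and 2950 under water stress. Both were lowest in recovery. PSAO (AT1G08380), a photosystem I subunit, had 10500 in recovery, against 36000 under normal growth, a change of −1.77 that was −0.80 with median scaling, and PETE1 (AT1G76100), a plastocyanin, had 1670 in recovery, against 4730 under normal growth, a change of −1.5.

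Higher members of the same machinery included LHCB1.4 (AT2G34430), a major antenna protein with near-identical copies, at 9460 in recovery, against 2670 under normal growth, a change of 1.83. ATPD (AT4G09650), a subunit of the chloroplast ATP synthase, had 21800 in recovery, against 6680 under normal growth, a change of 1.70. PSBS (AT1G44575), which dissipates excess light energy, stood at 1.51, but its 3 spots spread between −0.56 and 1.51 with a mean of 0.57. PSBY (AT1G67740), a small photosystem II protein, stood at 1.24. PETE2 (AT1G20340), the major plastocyanin, had 456 in recovery, against 594 under normal growth, a change of −0.38, while its AhNF-YC-OE channel changed by −2.05. The wild-type value was 0.34 after block centring and 0.24 with median scaling.

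Carbon fixation genes split evenly, with 5 of 19 (26.3%) higher and 5 (26.3%) lower, and had a median change of 0.35. The pair of chloroplast glyceraldehyde-3-phosphate dehydrogenase subunits diverged: GAPA1 (AT3G26650) had 13100 in recovery, against 3850 under normal growth, a change of 1.77, and GAPA2 (AT1G12900) had 344 in recovery, against 1360 under normal growth, a change of −1.98. Small subunits of Rubisco diverged too, at 1.43 for RBCS1B (AT5G38430), 1.14 for RBCS1A (AT1G67090), −1.06 for RBCS3B (AT5G38410), or −0.45 after block centring, and −1.55 for RBCS2B (AT5G38420). These copies are near-identical in sequence, so their separate signals are uncertain, and the 3 spots of RBCS1A ran between −0.86 and 1.14 with a mean of 0.22. RCA (AT2G39730), the activase of Rubisco, had 32200 in recovery, against 15900 under normal growth, a change of 1.02 with all 4 spots positive, between 0.60 and 1.93.

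Among the other enzymes, PRK (AT1G32060), phosphoribulokinase, stood at 1.46, and at 0.73 after block centring. CP12-1 (AT2G47400), a small regulator of the cycle, had 4610 in recovery, against 15300 under normal growth, a change of −1.73. TPI (AT2G21170), triose-phosphate isomerase, stood at −1.25, and at −0.89 after block centring. In chlorophyll synthesis, 1 of 14 genes (7.14%) was higher and 1 lower, with a median of 0.38. CHLI1 (AT4G18480), of the magnesium chelatase, had 1640 in recovery, against 492 under normal growth, a change of 1.74. HEMA1 (AT1G58290), which starts the pathway, had 14400 in recovery, against 29700 under normal growth, a change of −1.05, but −0.03 with median scaling.

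Senescence genes had 1 of 20 (5.00%) higher and 2 (10%) lower, against 14.8% and 14.7% of all loci, and a median of 0.13 that was −0.13 after block centring. ACD2 (AT4G37000), which breaks down a chlorophyll catabolite, had 2750 in recovery, against 816 under normal growth, a change of 1.75. DIN10 (AT5G20250), a raffinose synthase-like gene induced in darkness, had 535 in recovery, against 3570 under normal growth, a change of −2.74, and 440 under water stress. SAG21 (AT4G02380), an oxidative-stress LEA-like protein, had 1570 in recovery, against 6080 under normal growth, a change of −1.96. SEN1 (AT4G35770), a dark- and senescence-induced gene, had 505 in recovery, against 358 under normal growth, a change of 0.50, which was 1.48 with median scaling.

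Of 19 genes that remove reactive oxygen, 3 (15.8%) were higher and 2 (10.5%) lower, with a median of 0.31. APX3 (AT4G35000), a peroxisomal ascorbate peroxidase, had 2850 in recovery, against 635 under normal growth, a change of 2.17, and 1670 under water stress. The catalase CAT1 (AT1G20630) had 14300 in recovery, against 6540 under normal growth, a change of 1.13, which was 0.62 after block centring. CAT2 (AT4G35090), the main leaf catalase, had 1330 in recovery, against 2560 under normal growth, a change of −0.94 that was −1.29 after block centring and −1.04 in the authors' normalized values. The cytosolic peroxidase APX1 (AT1G07890) stood at 1.54 with its 2 spots at −1.0 and 1.54. The iron superoxide dismutase FSD1 (AT4G25100) had 757 in recovery, against 5360 under normal growth, a change of −2.82, though its spots ran between −2.82 and 0.16, and the glutathione reductase GR2 (AT3G54660) stood at −1.29.

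Heat shock genes had 4 of 17 (23.5%) higher and 2 (11.8%) lower, with a median of 0.18. HSP21 (AT4G27670), a chloroplast small heat shock protein, had 1600 in recovery, against 619 under normal growth, a change of 1.37, and 602 under water stress. HSFA6A (AT5G43840), a heat shock factor, stood at 1.26, HSP17.8 (AT1G07400) at 1.07, and at 0.70 after block centring, and HSP70-4 (AT3G12580) at 1.03, which was 0.94 with quantiles over the 2 channels alone. HSP17.6C (AT1G53540) had 798 in recovery, against 4270 under normal growth, a change of −2.42, and HSFA1B (AT5G16820), a factor that starts the response, stood at −1.65. Members of 1 protein class, HSP17.8 and HSP17.6C, thus went opposite ways.

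Jasmonate and salicylate genes had 5 of 30 (16.7%) higher and 7 (23.3%) lower, with a median of −0.22 that was 0.25 with median scaling, where all loci had 0.78. The 10 JAZ repressors of jasmonate signalling went both ways. Higher were JAZ3 (AT3G17860) at 1.83 with spots at 0.78 and 1.83, JAZ2 (AT1G74950) at 1.62, which was 0.89 after block centring, and JAZ6 (AT1G72450) at 1.54. JAZ5 (AT1G17380) was called lower, at −1.05 and at −0.40 after block centring, and the remaining 6 lay between −0.82 for JAZ10 (AT5G13220) and 0.62 for JAZ9 (AT1G70700). AOC3 (AT3G25780), an allene oxide cyclase of jasmonate synthesis, stood at 1.39 and the glucanase PR2 (AT3G57260) at 1.05, which was 0.96 with rows within blocks centred. Enzymes of that synthesis did not share a direction. Lower were the lipoxygenase LOX2 (AT3G45140), with 2290 in recovery, against 6330 under normal growth, a change of −1.47, and OPR3 (AT2G06050), at −1.47 with 3 spots between −1.47 and −0.21. AOC4 (AT1G13280), another allene oxide cyclase, stood at 0.19. On the salicylate side, FMO1 (AT1G19250), of systemic resistance, had 860 in recovery, against 2450 under normal growth, a change of −1.51, and the receptor NPR1 (AT1G64280) stood at −1.44, and at −0.78 after block centring.

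Cell wall growth genes had 1 of 13 (7.69%) higher and 2 (15.4%) lower, with a median of −0.02, which was 0.62 with median scaling. Expansins went both ways: beside EXPA1, EXPA3 (AT2G37640) stood at −1.06, and at −0.45 after block centring, whereas EXPA4 (AT2G39700) had 700 in recovery, against 195 under normal growth, a change of 1.85, and 278 under water stress. Clock genes had 5 of 17 (29.4%) higher and 1 (5.88%) lower, with a median of 0.37. The labels used here do not state the time of day of sampling.

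LHY (AT1G01060), a morning-phased MYB factor of the clock, had 378 in recovery and was not above background under normal growth. Set against the lowest above-background level of that array, its log2 change was at least 2.61, but it was 0.15 without background correction. LHY is counted among the 5 higher clock genes, though its call is not settled. Its partner CCA1 (AT2G46830) had 964 in recovery, against 445 under normal growth, a change of 1.12, which was 0.90 after block centring. PRR3 (AT5G60100), a pseudo-response regulator, had 2020 in recovery, against 364 under normal growth, a change of 2.47, and 1200 under water stress. RVE8 (AT3G09600), an activator of evening genes, had 8300 in recovery, against 2650 under normal growth, a change of 1.65, and its relative RVE6 (AT5G52660) stood at 1.15 with 3 spots, at 0.77 in the mean over spots. LKP2 (AT2G18915), an F-box photoreceptor, had 3730 in recovery, against 7480 under normal growth, a change of −1.0 with spots at −1.66 and −0.35, and −0.47 in the authors' normalized values.

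Markers of other organs are to be read against the 14.8% higher and 14.7% lower of all loci. In seed, root and flower genes alike, the higher share lay above 14.8% and the lower share below 14.7%. These shares rest on few genes and were not tested. Seed genes had 3 of 9 higher (33.3%) and 1 lower (11.1%), with a median of 0.81 and a summed intensity of 101000 in recovery against 72800 under normal growth. The albumins SESA4 (AT4G27170) and SESA2 (AT4G27150) stood at 1.15 and 1.09 and the cruciferin CRA1 (AT5G44120) at 1.09, or 0.84 after block centring, while SESA1 (AT4G27140), not above background in recovery, was lower by at least 2.61 on the log2 scale, with 387 under normal growth. Root genes had 2 of 10 higher (20.0%) and 0 lower, with sums of 60000 in recovery and 52600 under normal growth. LRX1 (AT1G12040), of root hair walls, stood at 1.56 and SHR (AT4G37650), of root patterning, at 1.11. Flower genes had 2 of 8 higher (25%) and 0 lower, with AP1 (AT1G69120) at 1.20 and AP3 (AT3G54340) at 1.15, a median of −0.24, which was 0.32 with median scaling, and sums of 35900 in recovery and 38400 under normal growth. For leaf genes the sums were 382000 in recovery and 450000 under normal growth over the light reactions, and 144000 and 122000 over carbon fixation. The part of these markers in the results above was not tested.

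**Figure D4:**
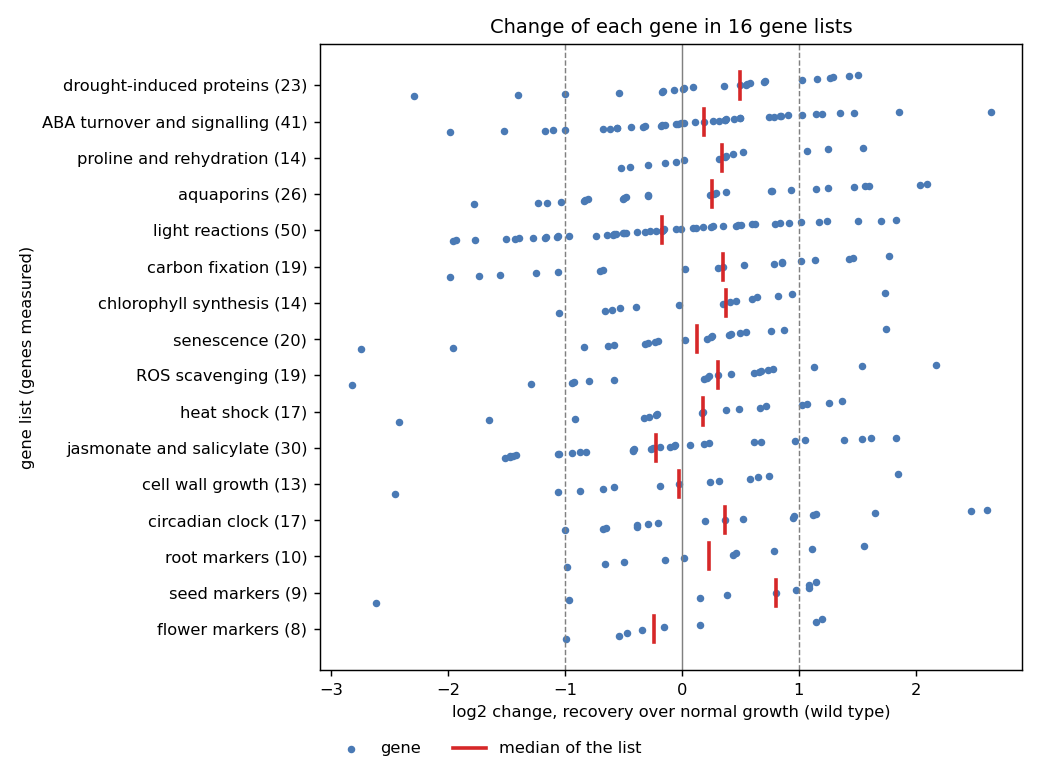
Log2 change, recovery over normal growth, in the wild-type channel (x axis) of each measured gene (points) in 16 gene lists (y axis, with the number of genes), with the median of each list as a red bar and dashed lines at 2-fold. Every list spans 0, and list medians run from −0.24 for flower markers to 0.81 for seed markers. LHY and SESA1 are drawn at their bounds.

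On the same slides the AhNF-YC-OE channel gave 4205 higher and 4092 lower loci. Its changes followed those of wild type across loci (r = 0.959), with 3278 loci higher in both genotypes, 3374 lower in both and 0 called in opposite directions, the last a count over single values with no test. The channels share each slide and its spots, so the line is no replicate of wild type.

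The water stress array shares the normal growth array as its comparator, so only its values can be set beside those of recovery. Drought-induced proteins had a median change of 0.50 in recovery and 0.46 under water stress, ABA genes 0.19 and 0.18, proline and rehydration genes 0.34 and 0.31, and aquaporins 0.26 and 0.16, each against normal growth. Light reaction genes had −0.17 in recovery and 0.06 under water stress, and chlorophyll synthesis genes 0.38 and −0.22. At single genes, PSBP1 stood at −1.96 in recovery and −0.68 under water stress, PIF4 at −1.27 and −0.07, EXPA1 at −2.45 and −1.18, and CAT1 at 1.13 and 0.15. ANAC055 stood at 2.64 and 2.66 and ERD6 at −2.29 and −2.31.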

How the data were processed

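Labelled cDNA of wild-type (Cy3) and AhNF-YC-OE (Cy5) rosette leaves was hybridised together on 1 two-colour oligonucleotide array per state. The protocol calls the dyes Alexa rather than Cy dyes. Dyes were never exchanged. Per the file headers, the deposited files hold a mean pixel intensity for spot and local background in either channel, and an intensity normalized by the authors. The sources used here name no method for it, and neither scanner nor software. Per the file headers, the locus codes follow TIGR release 5 and TAIR release 7. RefSeq's table, of another assembly, gave names for 25818 of 26017 loci, so no coordinates are printed, and sequences were not used here.

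Cy3 signals were background-corrected with normexp (offset 50), taken to log2 and quantile-normalized over the 3 Cy3 channels on spots whose locus code starts with AT (limma 3.58.1, R 4.3.3). Spots of a transcript were averaged, and a locus was represented by its brightest transcript. A locus entered when it lay over the local background mean plus 2 SD on at least 1 of the 2 arrays. A value not above background on 1 array, for 18 loci, was raised to the lowest above-background level of that array where it lay below it. Such changes are written "at least", though this limit is not that of the spot's own background. Tables were made with pandas 2.3.3 and numpy 2.4.6 in Python 3.11.15, and the steps were run on simulated data. The simulation had far less scatter between spots than these data and planted changes above the 2-fold step. It therefore checks the code and not the calls made here. There were 13 alternatives in background correction, normalization, slide position, filters and averaging.

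Members and gene lists were chosen with earlier results of these data known. Named genes were the 12 highest and 12 lowest eligible loci, up to 10 each way with every spot at least 2-fold the same way, up to 4 members of each of 16 lists each way, and 17 genes whatever their value. Eligible loci had a name, 1 sign at all spots, at least 1.5-fold the same way in 4 other processings, and a level over 95% of empty spots on 1 array. Loci whose role was not known could be passed over. RBCS3B, PR2, CCA1, JAZ5, JAZ9, JAZ10, HAI2, HAI3, AOC4 and the repeated genes lie outside this rule and were chosen after their values were seen.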

Additional observations from a re-analysis of the deposited data

How the results depend on the processing

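Counts of higher and lower loci stayed within 1.5 times of 3859 and 3825, from 3243 to 4420 higher and from 3238 to 4307 lower, except with median scaling (10970 and 2443) and above the median level, where 13006 loci were kept (2039 and 2000). After centring of print-tip blocks, 3243 loci were higher and 3628 lower. Of the calls reported, 2697 of 3859 higher and 3000 of 3825 lower loci were kept there. Of 126 named genes past 2-fold, 125 were still called without background correction, 106 after block centring, 117 with rows within blocks centred, 119 with the mean over spots, 111 with median scaling and 120 of 124 in the authors' normalized values. PIP1;4 turned to 3.27 there. The highest and lowest eligible genes had been picked partly for being at least 1.5-fold the same way in other processings. Their retention was thus partly set by that choice, and the counts for named genes are no independent check of them. List medians with median scaling were 1.12 for drought-induced proteins, 1.04 for ABA, 0.96 for proline and rehydration, 0.84 for aquaporins, 0.48 for light reactions, 0.72 for carbon fixation, 0.67 for chlorophyll, 0.97 for senescence, 0.83 for reactive oxygen, 0.96 for heat shock, 0.25 for jasmonate and salicylate, 0.62 for cell wall, 1.25 for clock, 0.86 for root, 1.53 for seed and 0.32 for flower genes, where all loci had 0.78. Above the median level, the medians were 0.02 for drought-induced proteins, 0.02 for ABA, 0.76 for aquaporins, −0.38 for light reactions, 0.86 for carbon fixation, −0.20 for senescence and −0.65 for jasmonate and salicylate genes, over fewer genes. After block centring they were −0.05 for proline and rehydration, −0.01 for aquaporins, −0.13 for senescence and 0.44 for seed genes. The cause was not tested. Median scaling also ended the calls of RBCS2B (−0.95), EXPA3 (−0.95), CYP707A2 (−0.95), CYP707A3 (−0.65) and LKP2 (−0.30), the mean over spots those of APX1 (0.27) and OPR3 (−0.81), and quantiles over 2 channels those of RCA (0.99) and CRA1 (0.99). Rows within blocks centred ended those of SESA4 (0.94), SESA2 (0.89), SHR (0.83), CRA1 (0.90) and RCA (0.93). No paired analysis was possible because each state had 1 array and the labels carry no replicate numbers. Signal over background was lower in recovery than under normal growth, at 25.5 and 85.9, while empty spots were brighter under normal growth, which limits what dim genes show there.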

Other observations

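Gene families were read from the words of the array annotation and chosen after the files were seen. They were drawn only from the 6646 loci with a description or symbol. Their counts are set beside the 14.8% higher and 14.7% lower of all loci. The shares among the described loci alone are not given, so this background is not a matched one. Transcription factors of the ERF and AP2 family, which include regulators of stress and cytokinin responses, had 7 of 21 (33.3%) higher and 2 (9.52%) lower in recovery, with a median change of 0.35. NAC factors had 19 of 98 (19.4%) higher and 8 (8.16%) lower, with a median of 0.14. WRKY factors had 14 of 70 (20.0%) higher and 10 (14.3%) lower, and MYB factors 10 of 84 (11.9%) higher and 11 (13.1%) lower.

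Pentatricopeptide repeat proteins, which process RNA in organelles, had 4 of 24 (16.7%) higher and 1 (4.17%) lower, with a median of 0.53. Cytochrome P450s had 34 of 234 (14.5%) higher and 40 (17.1%) lower, and receptor and other protein kinases 31 of 169 (18.3%) higher and 34 (20.1%) lower. Ribosomal proteins had 6 of 50 (12%) higher and 5 (10%) lower, with a median of −0.08 that does not follow the repeated L32 gene. The 33 loci of the organelle genomes had 6 higher and 3 lower, with a median of 0.10. None of these counts was tested.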
